A study of Mus musculus with 6 samples.

Results

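The 10 genes described here encode the Fos and Jun proteins that make up the transcription factor AP-1 (Fos, Fosb, Fosl1, Fosl2, Jun, Junb and Jund) and 3 further immediate early factors, Egr1, Atf3 and Nr4a1. They were taken by name, and their array probes were those whose RefSeq accession belongs to one of them, which gave 11 probes for 10 of the 21368 genes named on the array. Fosl2 had 2 probes and each other gene had 1. RNA came from the epidermis of mouse tail skin, lifted off the dermis in EDTA, of wild type C57BL/6 mice: 3 young samples of 8 weeks and 3 aged samples, of which aged replicate 1 was from 22 months and aged replicates 2 and 3 from 25 months. The labels give neither the sex nor the number of animals behind a sample. A p-value here therefore reflects only how far these samples scatter, which may in part be technical. Every sample had a 1-colour array to itself, and all 6 arrays lay on 1 slide and were read in 1 scan. The comparison asked which transcripts differ between young and aged tail epidermis.

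AP-1 is a dimer of proteins that share a basic DNA-binding region and a leucine zipper. Jun proteins pair with each other or with Fos proteins, Fos proteins need a Jun partner, and ATF3 joins the same network. Immediate early genes are transcribed within minutes of a growth factor, cytokine or stress signal through MAP kinases and factors already present in the cell, and their transcripts are short-lived. In the epidermis AP-1 is known for its part in keratinocyte proliferation, differentiation, wound repair and inflammation.

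Among members with a window searched, Fos, Fosb, Atf3 and Nr4a1 differed most from 8 weeks at 25 months. Their promoter windows, and that of Fosl2, which had the narrowest range, are shown because several members varied together over the arrays. Each is the RefSeq window of build GRCm38.p6 from 250 bases before to 50 bases after the gene's start, read 5′ to 3′ on the gene's strand, with every TGACG on either strand in capitals (CGTCA where it lies on the other strand). TGACG is the left part of the cAMP response element, and it also lies within the whole element TGACGTCA.
Fos, chr12:85473640-85473939, plus strand: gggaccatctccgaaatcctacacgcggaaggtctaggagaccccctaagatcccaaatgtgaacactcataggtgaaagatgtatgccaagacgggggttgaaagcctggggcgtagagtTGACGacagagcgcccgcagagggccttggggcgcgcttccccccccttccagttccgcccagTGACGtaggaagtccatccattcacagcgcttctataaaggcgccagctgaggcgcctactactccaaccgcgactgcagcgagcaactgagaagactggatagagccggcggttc
Fosb, chr7:19309996-19310295, minus strand: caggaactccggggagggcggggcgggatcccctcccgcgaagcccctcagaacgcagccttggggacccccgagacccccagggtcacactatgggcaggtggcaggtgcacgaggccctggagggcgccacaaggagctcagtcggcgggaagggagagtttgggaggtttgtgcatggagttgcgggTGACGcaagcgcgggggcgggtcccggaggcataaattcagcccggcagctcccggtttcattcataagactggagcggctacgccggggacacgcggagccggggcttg
Atf3, chr1:191183284-191183583, minus strand: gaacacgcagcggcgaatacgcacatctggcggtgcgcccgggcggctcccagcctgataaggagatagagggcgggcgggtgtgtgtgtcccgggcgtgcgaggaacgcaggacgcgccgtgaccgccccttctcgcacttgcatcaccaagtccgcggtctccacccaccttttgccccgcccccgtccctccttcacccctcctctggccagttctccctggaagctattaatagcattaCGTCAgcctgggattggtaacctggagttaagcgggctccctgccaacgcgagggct
Nr4a1, chr15:101266596-101266895, plus strand: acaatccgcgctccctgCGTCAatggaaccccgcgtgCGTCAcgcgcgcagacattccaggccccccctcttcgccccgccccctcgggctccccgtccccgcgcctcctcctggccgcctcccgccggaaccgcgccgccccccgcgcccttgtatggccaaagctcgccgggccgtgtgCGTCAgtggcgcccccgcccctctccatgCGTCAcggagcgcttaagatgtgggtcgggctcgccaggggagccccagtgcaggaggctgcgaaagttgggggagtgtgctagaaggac
Fosl2, chr5:32136222-32136521, plus strand: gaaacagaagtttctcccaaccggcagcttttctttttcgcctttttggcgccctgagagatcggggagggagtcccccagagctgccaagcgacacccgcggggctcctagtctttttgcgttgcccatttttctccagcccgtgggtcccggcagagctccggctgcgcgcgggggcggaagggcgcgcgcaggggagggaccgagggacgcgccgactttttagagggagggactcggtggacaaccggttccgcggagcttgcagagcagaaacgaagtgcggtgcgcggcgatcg
TGACG was found in the windows of Fos, Fosb, Atf3, Nr4a1 and Junb, which are 5 of the 8 members with a window searched, and in 20.8% of the 32851 promoter windows of 300 bases of the genome. The windows of Jun, Jund and Fosl2 held none, and Jun and Jund also had both 25-month arrays above all others. The Nr4a1 window held it at 4 places and the Fos window at 2. The whole element TGACGTCA, the AP-1 motif TGANTCA and the CArG box of serum response factor were searched on both strands and found in 0 of the 8 windows, against 1.79%, 7.81% and 1.63% of all windows. These are matches of letters in a short window and do not show where a factor binds. Elements more than 250 bases before the start were not searched, so the 0 does not show that a gene lacks them. Fosl1 and Egr1 had no window searched.

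In aged epidermis as a whole no member passed the threshold, a Benjamini-Hochberg adjusted p under 0.05 over all features tested by limma, where 11 of 14135 named genes did (0.0778%, with 0.0424% higher in aged samples). All 10 members were well above background on all 6 arrays. A higher aged than young mean was found for 9 of the 10 (63.6% of all genes tested). Their median difference, aged minus young, was 0.49 on the log2 scale, beside 0.09 for all genes tested. The 10 adjusted p-values lay between 0.535 for Fosb and 0.915 for Fosl2, and 0 members had an unadjusted p under 0.05, against 17.7% of all genes. The aged and young values of every member overlapped, whereas they did not overlap for 27.0% of all genes.

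The members followed one order over the arrays. Aged replicate 1, the 22-month sample, was the lowest array for 10 of 10 members (24.0% of all genes tested). Young replicate 1 was the second lowest for 10 of 10, and so the lowest of the 3 young arrays (33.9% of all genes tested). Both 25-month arrays lay above all other arrays for 9 members, with Fosl2 as the exception (19.8% of all genes tested). An array order with the 22-month sample below the other 5 arrays and both 25-month samples above the other 4 was found for 7.10% of all genes tested. The members' median deviation from the young mean was -0.80 on the 22-month array, 1.16 and 1.01 on the 25-month arrays of replicates 2 and 3, and -0.44, 0.10 and 0.30 on young replicates 1, 2 and 3. The median over all genes tested stayed within -0.02 to 0.17 on the same arrays.

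**Figure D1:**
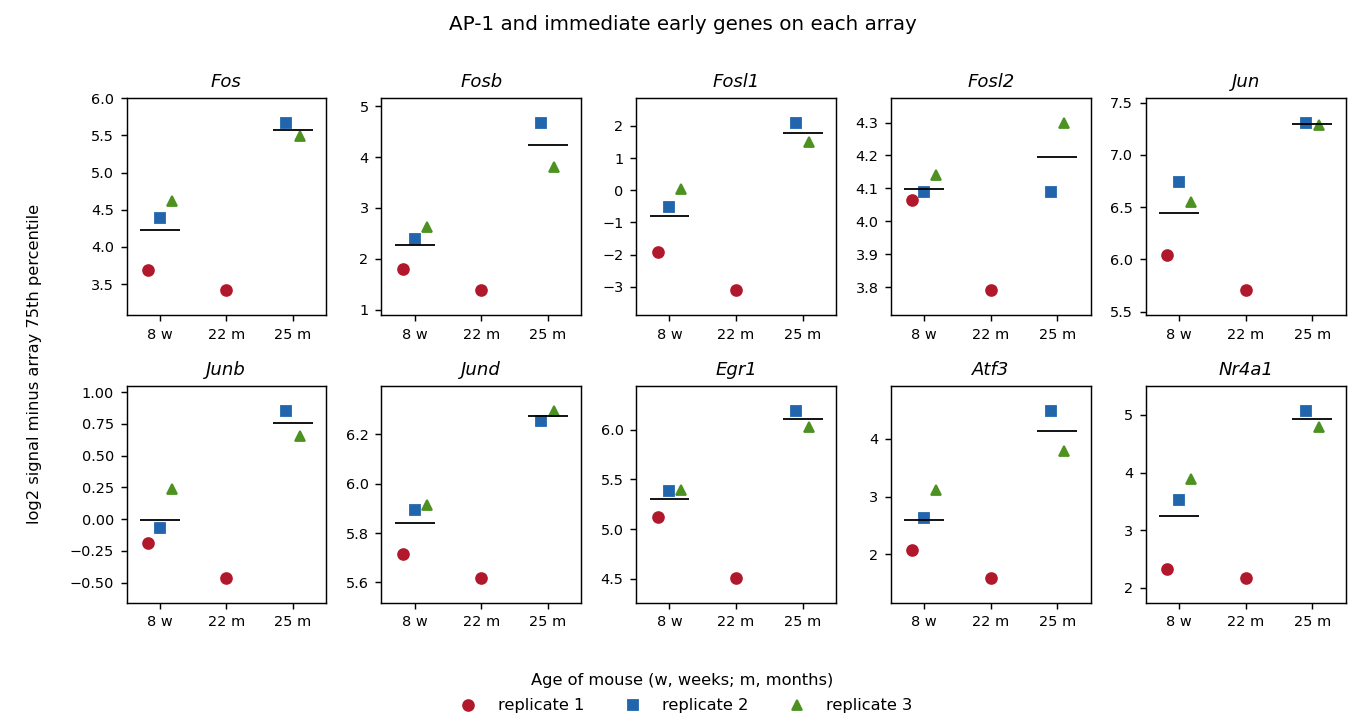
Log2 signal of each of the 10 genes, relative to the 75th percentile of its array, against the age of the mouse (8 weeks, 22 months, 25 months). Points are single arrays, marked by replicate number, lines are means of the young and of the 25-month arrays, and each panel has its own vertical scale; the 22-month point is the lowest in every panel, and for all genes but Fosl2 both 25-month points lie above the rest.

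The Fos genes encode AP-1 subunits that pair with Jun proteins. Fos log2 signals were 3.69, 4.39 and 4.61 on young replicates 1 to 3, 3.42 at 22 months, and 5.66 and 5.49 at 25 months. The 25-month arrays were the only aged arrays above the young range, and the 22-month array lay below it. The mean of Fos was 4.23 ± 0.48 over young and 4.86 ± 1.25 over aged arrays (SD, n = 3 in either group), which differed by 0.63 ± 0.63 (SE; adjusted p = 0.622 by limma). Fosb, the nearest relative of Fos, read 1.79, 2.39 and 2.63 in young samples, 1.38 at 22 months, and 4.67 and 3.81 at 25 months. It had the largest difference of all members between the groups, 1.01 ± 0.82 (SE, adjusted p = 0.535), and an aged SD of 1.71 against 0.43 in young samples.

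Fosl1 encodes Fra-1, an AP-1 subunit that lacks the strong activation domain of Fos and is known to be raised in wounds and carcinomas. Its log2 signals were -1.91, -0.53 and 0.03 in young samples, -3.10 at 22 months, and 2.08 and 1.49 at 25 months. The span from the lowest to the highest array was 5.18 log2 units, the widest among the members, and the aged SD of 2.84 was larger than the difference between the groups of 0.96 ± 1.40 (SE, adjusted p = 0.745). Fosl2, which encodes Fra-2, a subunit found in differentiating keratinocytes, spanned 0.51 units, the narrowest. Its brighter probe read 4.06, 4.09 and 4.14 in young samples, 3.79 at 22 months, and 4.09 and 4.30 at 25 months, a difference of -0.04 ± 0.15 (SE, adjusted p = 0.915). Its dimmer probe read -3.01, -2.21 and -2.22 in young and -2.79, -2.22 and -2.33 in aged samples, so neither probe separated the groups.

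The Jun genes encode the obligate partners in AP-1. Jun read 6.04, 6.74 and 6.55 in young samples, 5.70 at 22 months, and 7.30 and 7.29 at 25 months. Its aged minus young difference was 0.32 ± 0.47 (SE, adjusted p = 0.746), and the 25-month values stood 0.56 and 0.74 above the young arrays of the same number. Junb, whose product restrains Jun-driven proliferation in many cells, read -0.19, -0.07 and 0.24 in young samples, -0.46 at 22 months, and 0.85 and 0.65 at 25 months. Junb differed by 0.35 ± 0.36 (SE, adjusted p = 0.625). Jund, the Jun gene with the steadiest expression in most tissues, read 5.72, 5.89 and 5.91, then 5.62, then 6.25 and 6.30. It kept the same order of ages with a span of 0.68 log2 units, and differed by 0.21 ± 0.21 (SE, adjusted p = 0.608).

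The other immediate early factors had the same shape. Egr1, a zinc finger factor induced by serum and injury, read 5.12, 5.38 and 5.39 in young samples, 4.51 at 22 months, and 6.19 and 6.03 at 25 months. Its young values were close together (SD 0.15) and its aged values were not (SD 0.93), and the difference was 0.28 ± 0.45 (SE, adjusted p = 0.770). Atf3, a stress-induced bZIP factor that mostly represses, read 2.07, 2.62 and 3.11, then 1.59, then 4.49 and 3.78, a difference of 0.69 ± 0.75 (SE, adjusted p = 0.652). Nr4a1, an orphan nuclear receptor also called Nur77, read 2.33, 3.52 and 3.89, then 2.17, then 5.07 and 4.79, a difference of 0.77 ± 0.84 (SE, adjusted p = 0.654). For both, young replicate 1 lay nearer to the 22-month array than to young replicate 3.

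The labels give 3 ages, and a fit with these as separate groups, added after the data were seen, resolved the aged samples. At 25 months against 8 weeks all 10 members lay higher (66.4% of all genes did), by a median of 1.10 log2 units against 0.12 for all genes. With quantile normalization Fosl2 turned to -0.02. Fosb rose by 1.97 ± 0.35 (SE, 3.91-fold, limma adjusted p = 0.0374) and Egr1 by 0.81 ± 0.15 (1.75-fold, adjusted p = 0.0394), so 2 of 10 members were higher past the threshold where 1.96% of all genes were. At an unadjusted p under 0.05, 9 of 10 members were higher, against 14.2% of all genes. Fosl1 was 2.59 ± 0.58 higher (6.00-fold, adjusted p = 0.0685), Fos 1.35 ± 0.29 (2.55-fold, adjusted p = 0.0616) and Nr4a1 1.69 ± 0.46 (3.22-fold, adjusted p = 0.110), none of which passed. For 9 of 10 members the 25-month values did not overlap the young ones, against 33.0% of all genes that lay higher without overlap. Fosl2 differed by 0.10 with a 95% confidence interval of -0.22 to 0.41.

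At 22 months all 10 members lay below the young mean, with a median difference of -0.80 on the log2 scale and the lone array assumed to vary like the other ages. The differences ran from -2.30 ± 0.73 (SE) for Fosl1 to -0.22 ± 0.16 for Jund, and 0 members passed the threshold (limma adjusted p from 0.112 for Egr1 to 0.455 for Jund), where 0.573% of all genes did. Unadjusted p was under 0.05 for 3 members, Fosl1, Jun and Egr1, against 20.6% of all genes in either direction and 11.9% higher. These 3 members were all lower, so the 11.9% describes the opposite direction, in which 0 members lay at that p. Set directly against each other, 25 months lay above 22 months for all 10 members, and 3 passed the threshold (1.34% of all genes were higher past it). These were Egr1 (1.60 ± 0.20, SE, adjusted p = 0.0343), Fosl1 (4.89 ± 0.77, adjusted p = 0.0466) and Fosb (2.86 ± 0.47, adjusted p = 0.0489). Over all genes tested, 53.8% lay higher at 25 than at 22 months. Fosl1 was dim on the 22-month array (median spot signal 67 over a background of 29). With normexp background its difference between these ages was 3.49. The 3 age contrasts share arrays, so they are not independent of each other. Across other scalings, backgrounds and filters 0 to 8 members passed the threshold in either contrast, and the calls ended with quantile normalization and with no filter on dim probes. Against 8 weeks 0 members passed when any single young or 25-month array was left out. Leaving out the 22-month array cannot change that contrast. Against 22 months 0 to 5 members passed with single arrays left out. The members' median stayed between 0.90 and 1.22 above 8 weeks and between 1.81 and 1.96 above 22 months.

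**Figure D2:**
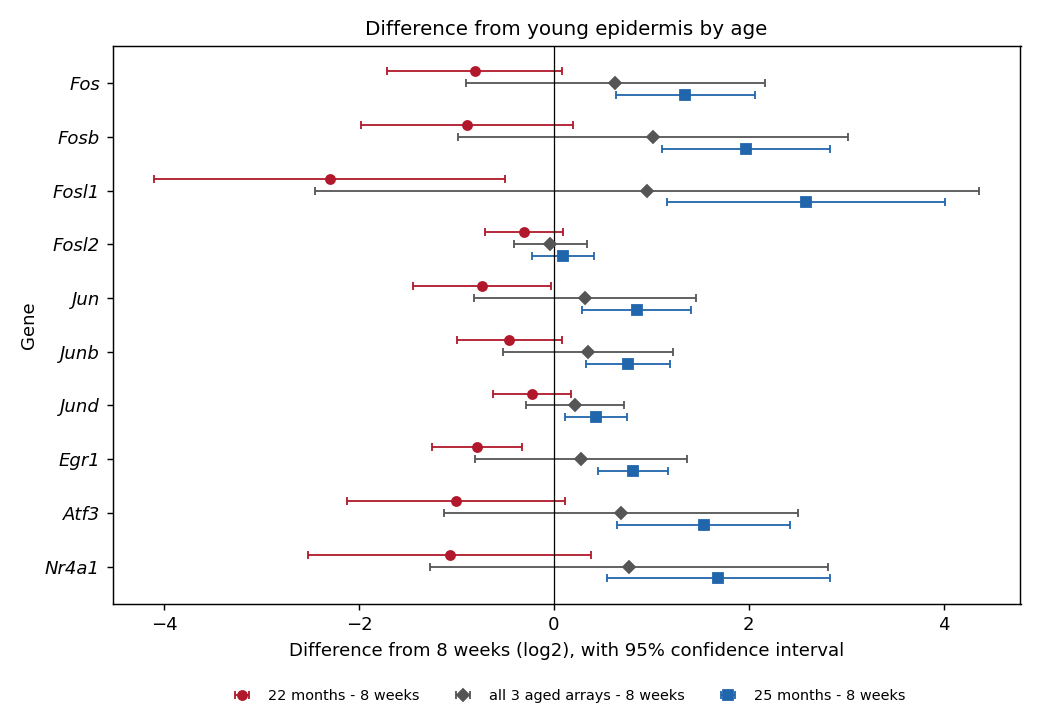
Difference of each gene from the 8-week arrays on the log2 scale, with 95% confidence intervals from the limma fit, for the 22-month array, the 3 aged arrays together, and the 25-month arrays. The 22-month points lie left of 0 and the 25-month points right of 0 for every gene, and the intervals of the 3 aged arrays together span 0.

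The split of the aged samples coincided with the replicate number and with Y-linked transcripts. Replicate 1 of both groups carried the Y-linked gene Eif2s3y (3.31 in young and 3.43 in aged epidermis, and -6.62 or lower on the other 4 arrays), so age in months, replicate number and these transcripts cannot be told apart within the aged group. Between the samples numbered 1, both with Y-linked transcripts, the aged sample was lower for 10 of 10 members, with aged minus young values of -0.10 to -1.19. Between samples numbered 2 and between samples numbered 3 the aged sample was higher for 10 of 10 members. The differences were 0.0018 to 2.61 and 0.16 to 1.46, smallest for Fosl2 in both. No share over all genes was counted for these same-numbered comparisons. Without replicate 1 of both groups the members' median difference was 0.90, 9 of 10 had an unadjusted p under 0.05 (16.3% of all genes were higher and 26.1% differed in either direction at that p), and 0 passed the threshold (1.52% of all genes did), with Fos nearest at 1.08 ± 0.15 (SE, adjusted p = 0.0627). With the replicate number as a block, 0 of the 14135 genes passed in place of 11, and still 0 members. Young replicates 1 and 2 lay in the other row of the slide from the remaining arrays. With that row as a block the members' median difference was 0.16. Since the other row held no aged array, this difference sets the aged arrays against young replicate 3 alone, and row and age cannot be separated.

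Among 42 other immediate early genes, 40 were tested and 31 had a higher aged mean (63.6% of all genes did). Of the 40 tested 0 passed the threshold, and their median difference was 0.19. The list followed the members over the arrays, with a median deviation of -0.45 on the 22-month array and 0.59 and 0.51 on the 25-month arrays. At 25 months against 8 weeks 4 of the 40 were higher and 1 lower past the threshold, where 5.72% of all genes passed in either direction. The 4 were the nuclear receptor gene Nr4a2 (1.19 ± 0.19, SE, limma adjusted p = 0.0289), the small Maf gene Maff (0.80 ± 0.13, adjusted p = 0.0304) and the Krüppel-like factor genes Klf6 and Klf10 (0.81 ± 0.15 and 0.65 ± 0.12). Dusp2, a phosphatase gene that turns off MAP kinases, went the other way and fell by 2.38 ± 0.29 (adjusted p = 0.0154).

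Dusp2 read 2.70, 2.12 and 2.28 in young samples, 1.26 at 22 months, and 0.37 and -0.39 at 25 months, so its aged values lay below the young range at both ages. It had the smallest p of the list between aged and young samples (-1.96 ± 0.42, SE, adjusted p = 0.136), followed by Egr4 (2.38 ± 0.81, well above background on 4 arrays), Irf1 (0.48) and Klf10 (0.45), none past the threshold. At 25 against 22 months 9 of the 40 were higher past the threshold and 0 lower, where 1.34% of all genes were higher past it. These included Tnfaip3, an inhibitor of NF-kappaB signalling (2.45 ± 0.28, SE, adjusted p = 0.0296), Csrnp1 (2.14 ± 0.29), Ier3 (1.81 ± 0.20) and Myc (1.53 ± 0.19), besides Nfkbia, Nfkbiz, Rhob, Klf6 and Nr4a2. The genes named for the age contrasts were chosen after their values were seen.

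In the signalling layer above AP-1 no gene passed the threshold. Of 34 tested MAP kinases, Ras and Raf genes and serum response factors, 19 were higher in aged samples, with a median difference of 0.03 and 0 past the threshold in any of the 4 comparisons. The smallest p belonged to the ribosomal S6 kinase gene Rps6ka1 (0.60, adjusted p = 0.153), and to Braf (-0.40), Rps6ka4 (0.29) and Elk3 (-0.31). Each count of genes higher in aged samples here stands beside 63.6% of all genes. Of 27 tested bZIP relatives 18 were higher, with a median of 0.05 and 0 past the threshold. Those with the smallest p were Creb3 (0.35), Ddit3 (0.40), Creb1 (0.47) and Batf2 (1.90, well above background on 3 arrays), with adjusted p of 0.202 to 0.240. Jdp2, a repressor that pairs with Jun, was higher at 25 than at 22 months (1.05 ± 0.16, SE, adjusted p = 0.0452). Of 14 regulators of AP-1 and Egr proteins 11 were higher, by a median of 0.12, and 0 passed in any of these comparisons, with Cops5 (0.31), Hdac3 (0.27) and Nab2 (0.51) among those with the smallest p.

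Genes described elsewhere as AP-1 targets of skin and wound repair were mixed between aged and young samples. Of 23 tested genes 11 were higher (63.6% of all genes were), with a median of -0.03 and 0 past the threshold. The smallest p belonged to Krt6a (-1.01), Plau (0.87), Ccnd1 (0.45) and Timp3 (-0.39). Resolved by age, S100a8 and S100a9, whose products form the alarmin calprotectin, had the widest swings. S100a8 read 2.00, 1.50 and 1.90 in young samples, -1.82 at 22 months, and 6.48 and 5.89 at 25 months. It fell by 3.62 ± 0.31 at 22 months (SE, limma adjusted p = 0.0342) and rose by 4.39 ± 0.24 at 25 months (adjusted p = 0.00300), with S100a9 at -3.84 ± 0.33 and 4.22 ± 0.26. Over the 3 aged arrays together the difference was 1.72 ± 2.16 for S100a8 (adjusted p = 0.699).

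Hbegf, an EGF receptor ligand, read 2.11, 2.25 and 2.37 in young samples, 1.17 at 22 months, and 3.79 and 3.29 at 25 months, and rose by 1.29 ± 0.19 at 25 months (SE, adjusted p = 0.0242). At 25 against 22 months, where 1.34% of all genes were higher past the threshold, 5 of the 23 targets were higher and 0 lower, namely S100a8, S100a9, Hbegf, the EGF receptor ligand gene Areg (2.06 ± 0.23, adjusted p = 0.0296) and the cornified envelope gene Sprr1b (1.78 ± 0.27). Krt6a, a keratin of wounded epidermis, fell at 25 months against 8 weeks (-1.13 ± 0.22, adjusted p = 0.0492), against the direction of the members.

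**Figure D3:**
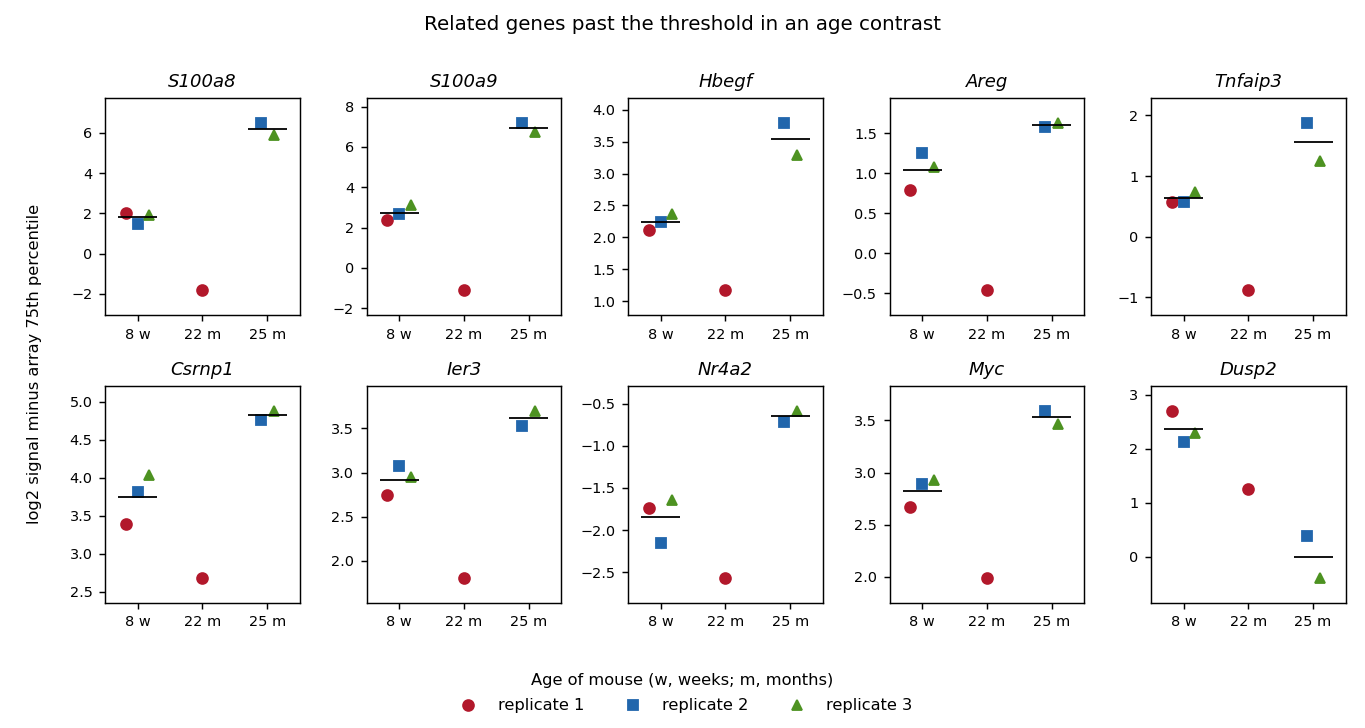
Log2 signal, relative to the 75th percentile of the array, of 10 genes of the immediate early and target lists that passed the threshold in an age contrast, against the age of the mouse. Points are single arrays by replicate number and lines are means of the young and of the 25-month arrays; 9 genes are lowest at 22 months and highest at 25 months, and Dusp2 is lowest at 25 months.

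Heat shock and dissociation stress genes cover the handling of tissue before RNA is taken. Of 16 tested genes 14 were higher in aged samples, where 63.6% of all genes were. The median difference of the 16 was 0.18, and 0 passed the threshold (Dnajb1 0.53, Bag3 0.33, Hsp90ab1 0.22 and Hspd1 0.16 had the smallest p). Their median deviation was -0.01 at 22 months and 0.22 and 0.23 at 25 months, and 0.11, -0.07 and -0.05 on young replicates 1, 2 and 3. At 25 months against 8 weeks 16 of 16 lay higher (66.4% of all genes did), by a median of 0.21. Of these 1 passed the threshold, the HSP40 gene Dnajb1 (0.79 ± 0.14, SE, adjusted p = 0.0350), where 1.96% of all genes were higher past it. At 25 against 22 months 14 of 16 lay higher, by a median of 0.32, and 6 had an unadjusted p under 0.05, all of them higher (11.5% of all genes were), with 0 past the threshold. The part of handling stress in the members' differences was not tested. Of 15 targets of ATF4 and DDIT3 10 were higher in aged samples (63.6% of all genes were). Past the threshold 1 was lower, Chac1, a glutathione-degrading enzyme gene (-1.79 ± 0.13, limma adjusted p = 0.0283). Chac1 read 4.19 to 4.31 in young and 2.25 to 2.58 in aged samples and was low at both aged ages. The others of this list with the smallest p were Psat1 (0.36), Phgdh (0.26) and Sesn2 (-0.27).

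**Figure D4:**
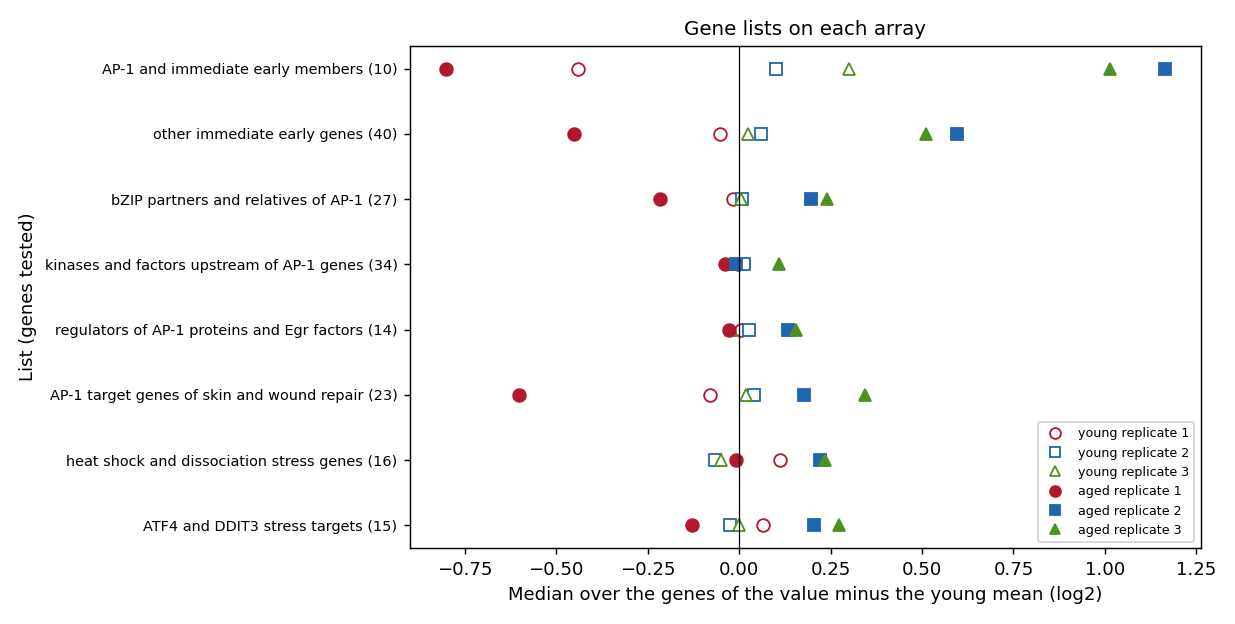
Median deviation from the young mean, in log2 units, of each gene list on each of the 6 arrays (open symbols young, filled symbols aged, shape and colour by replicate number), with the number of genes tested in brackets. The 10 members run from -0.80 at 22 months to 1.16 at 25 months, other immediate early genes from -0.45 to 0.59, and the upstream list stays between -0.04 and 0.11.

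Marker genes of other cells also separated the aged samples. All 7 listed basal keratinocyte genes and 7 of 8 listed suprabasal genes were tested and well above background on all 6 arrays, which are markers of the labelled tissue. In whole tissue fewer cells of a type and less RNA per cell cannot be told apart. Erythrocyte genes (5 of 7 listed were tested) had a summed signal, in units of the 75th percentile, of 13.4 to 246 in young and 6.94 to 129 in aged samples, and the sum was lowest on both arrays numbered 1. The 3 haemoglobin genes carried that sum and had this order, whereas Slc4a1 was lowest on the 25-month arrays and Alas2 on young replicate 1 and aged replicate 3. Langerhans cell genes (9 of 10 listed were tested) had a summed signal of 33.0 to 46.1 in young samples, 14.8 at 22 months, and 20.9 and 34.5 at 25 months. Mfge8, the brightest of them on every array, carried much of that sum (3.35 on the log2 scale at 22 months). The list's median deviation from the young mean was -3.83 at 22 months and -1.03 and 0.02 at 25 months. At 22 months 0 of the 9 lay above the young mean. Hair shaft and inner root sheath genes (16 of 18 listed were tested) had a summed signal of 1368 to 2139 in young samples, 1098 at 22 months, and 218 and 45.1 at 25 months. Melanocyte genes (8 of 8 tested) had a summed signal of 15.4 to 19.4 in young samples, 14.0 at 22 months, and 6.12 and 5.21 at 25 months. The part of these cells in the members' differences was not tested.

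The neutrophil and monocyte list (5 of 8 listed were tested) had a median deviation of -0.45 at 22 months and 1.48 and 1.19 at 25 months, while Retnlg and Lyz2, which mark neutrophils and myeloid cells, were not well above background on any array. Without S100a8 and S100a9, the median deviation of the 3 genes left was 0.12 at 22 months and -0.18 and -0.03 at 25 months. The list's summed signal was 191 to 222 in young and 145 to 408 in aged samples. Csf3r carried most of the young sum (7.51, 7.64 and 7.71 on the log2 scale) and read 7.44 and 7.59 at 25 months. At 25 months against 8 weeks 3 of the 5 passed the threshold, all higher: S100a8 and S100a9, which keratinocytes also make, and Cxcr2, a chemokine receptor gene of neutrophils. Cxcr2 read -1.73, -1.16 and -1.42 in young samples, -1.31 at 22 months, and 0.05 and -0.24 at 25 months, and rose by 1.34 ± 0.21 (SE, limma adjusted p = 0.0279). The other genes, Csf3r (-0.11 ± 0.13) and Mpo (-0.68 ± 0.32, well above background on 3 arrays), did not pass. T cell genes (4 of 8 listed were tested) had deviations of 0.02 at 22 months and 0.01 and -0.01 at 25 months, and a summed signal of 4.27 to 5.64 in young and 5.91 to 12.0 in aged samples. Thy1, which other skin cells also express, carried the higher sum. It read 1.28, 0.33 and 0.75 in young samples, 1.46 at 22 months, and 3.17 and 2.54 at 25 months, and rose by 2.07 ± 0.33 (SE, adjusted p = 0.0297), while Cd3e differed by 0.06 ± 0.12 and Nkg7 by -0.12 ± 0.13. Cd3g, well above background on 3 arrays, was 2.67 higher at 25 than at 22 months. Its 22-month value of -7.12 lay below the lowest value well above background on that array (-5.43), so the size of this difference is uncertain. At 25 months against 8 weeks Cd3g differed by -0.08 ± 0.17 (SE). These marker genes were named after their values were seen. Cd3d, Cd247 and Il2rb were not well above background on any array. The part of these cells was likewise not tested.

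By a rule of likeness, the genes outside the members whose pattern over the 6 arrays was most like that of Fos were Rhob, Alox8, Crispld2, Csta3 and Pmaip1, with Pearson r of 0.994 to 0.982 among 1748 genes that varied enough to be compared. For Egr1 they were Myc, Nfkbia, Csta3, Coq10b and Sbno2, with r of 0.997 to 0.996 among 3759 genes. Rhob, Myc and Nfkbia are themselves on the immediate early list. The 6 arrays share 1 slide and few degrees of freedom, and r was above 0.9 for 135 genes with Fos and 258 with Egr1, so these are descriptions of shape only.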

How the data were processed

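Per the labels' protocols, tail epidermis RNA was amplified, the product took a Cy3 label, and Agilent arrays of 1 colour were used. Per the file headers, Feature Extraction 11.5.1.1 subtracted background and detrended the deposited spot intensity within an array, with no scaling across arrays. The authors' deposited table of log2 values for 33870 probes matched the scanner values minus each array's 75th percentile, centred on the probe's median, with r of at least 0.9999 per array. Its use here was as an alternative.

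The 75th percentile of an array (230.2 to 300.3 units) was set to 0 on the log2 scale. Control and outlier spots were dropped, and a probe's spots averaged. No spot was saturated. Of 55681 probes, 50.0% to 54.4% stood well above background, depending on the array. Probes were named by RefSeq accession (28331 of 55681 matched, 21368 genes), and a gene was represented by its brightest probe above background on at least 3 arrays. Aged and young arrays were compared with limma 3.58.1 in R 4.3.3 (lmFit, eBayes, two-sided, no covariate), adjusted over all features of 14135 genes and the unnamed probes. The fit with 3 age groups was added after the data were seen. No permutation test was made, as 3 arrays against 3 cannot reach 0.05. The number of arrays limits the precision.

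The members and gene lists were chosen with earlier results of these data known. The rule for named genes took all members, up to 4 genes per list by unadjusted p, and the 5 genes most like Fos and Egr1 in pattern, well above background on all 6 arrays and with an SD of at least 0.5 times theirs. A gene that this rule took from the list of regulators is not reported here. The titles number both groups 1 to 3, and deviations of same-numbered samples correlated with r of 0.414, 0.259 and 0.102 across features, so the numbers were taken to pair the samples and a fit with the replicate block was made; the labels name nothing the numbers share. The normexp alternative used median spot signals, since mean signals were not in the files used here. Other alternatives were quantile and median scaling, filters on dim probes, the mean of probes, array weights, the slide row as a block and leaving out arrays. The limma step was tested on simulated data.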

Additional observations from a re-analysis of the deposited data

Results flagged for a closer look

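For Fosb, Fosl1 and Egr1 the 22-month and the 25-month samples differed, by the limma contrast of the 2 ages over all features. Age in months cannot be told apart here from replicate number or Y-linked transcripts. The difference from 8 weeks was larger at 25 than at 22 months by 2.86 log2 units for Fosb (adjusted p = 0.0489), by 4.89 for Fosl1 (adjusted p = 0.0466) and by 1.60 for Egr1 (adjusted p = 0.0343). Each rests on 1 array of 22 months, which also differs from the 25-month arrays in its Y-linked transcripts. The part of these in the difference was not tested. Fosl1 was dim on the 22-month array, and with normexp background its difference was 3.49.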

How the results depend on the processing

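Against 11 genes past the threshold between aged and young samples, the count was 7 with quantile normalization, 21 with scaling to the median, 3 with probes above background on all 6 arrays, 1 with no filter, 4878 with array weights (which did not converge and gave aged replicate 2 a weight of 11.8), 1041 with gene-by-gene weights (added later), and 0 with the replicate block or the slide row as a block (2710 and 858 at an unadjusted p under 0.05, by limma). It was 215 without replicate 1 of both groups and 0 to 809 with single arrays left out, 809 without aged replicate 1. The 0 members past the threshold became 9 with array weights and 0 to 2 with single arrays left out, 2 (Fosb and Egr1) without aged replicate 1; the block changed no member's call. The members' median of 0.49 ranged from 0.095 (without aged replicate 2) to 1.10 (without aged replicate 1). Of 167 other genes on the pathway lists, the 1 past the threshold (Chac1) became 0 with no filter, the replicate block or the slide row block, 59 with array weights, 6 with gene-by-gene weights, 3 without replicate 1 of both groups, and 0 to 11 with single arrays left out. Fosl2, at -0.04, turned to 0.029 with scaling to the median and 0.079 without replicate 1 of both groups, and ranged from -0.158 (without aged replicate 3) to 0.096 (without aged replicate 1). Fosl1 turned to -0.0060 and Egr1 to -0.029 without aged replicate 2, the low ends of ranges that reached 2.59 and 0.81 without aged replicate 1. With the slide row as a block the aged arrays are compared with young replicate 3 alone, as the other row held no aged array. The causes were not tested.

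For 25 months against 8 weeks the 2 members past the threshold became 8 with normexp and 6 with scaling to the median. The count was 4 with probes above background on all arrays, and 0 with quantile normalization or no filter. It was also 0 with any single young or 25-month array left out, while leaving out the 22-month array cannot change this contrast. For 25 against 22 months the 3 became 8 with normexp or scaling to the median, 7 with the stricter filter, 0 with quantile normalization or no filter, and 0 to 5 with single arrays left out (5 without young replicate 1, 1 without young replicate 2, and 0 without young replicate 3, aged replicate 2 or aged replicate 3). With quantile normalization the smallest adjusted p of a member was 0.0723 and 0.0561 in these contrasts.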
